A study of Mus musculus with 4 samples.

Results

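The Dlk1-Meg3 cluster on distal mouse chromosome 12 was described through its 6 named genes, taken by name from a deposited table of 22686 genes. They were Meg3, Rian and Mirg, known as maternally expressed long noncoding RNAs, and Dlk1, Rtl1 and Dio3, known as paternally expressed protein-coding genes. RNA had been sequenced from female epiblast stem cells (EpiSCs), pluripotent cells derived from the epiblast, labelled E6.5. Each of 4 libraries stood for 1 combined genotype. These were Smchd1 MD1/MD1 with Xist deltaA/+, Smchd1 +/+ with Xist deltaA/+, Smchd1 MD1/MD1 with Xist 1lox/+, and Smchd1 +/+ with Xist 1lox/+, written below as MD1/MD1 XistdeltaA/+, +/+ XistdeltaA/+, MD1/MD1 Xist1lox/+ and +/+ Xist1lox/+. Smchd1 encodes a noncanonical SMC protein needed for silencing on the inactive X and at some imprinted genes, and Xist is the RNA that coats the inactive X. MD1, deltaA and 1lox are allele names as labelled. All 4 groups therefore carried a heterozygous Xist mutation, also the Smchd1 +/+ ones. Every library came from a cross of C57BL6/J with an F1 animal of JF1 and C57BL6/J. An autosomal stretch inherited from the mixed F1 parent can carry either strain's allele, and reads there can be told apart by parent only where it carries that of JF1. The sources used here do not say how many embryos or cell lines a library holds.

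Imprinting of this cluster is set by a control region between Dlk1 and Meg3 that is methylated on the paternal chromosome. On the unmethylated maternal chromosome Meg3, Rian and Mirg are transcribed in 1 direction, and on the paternal chromosome Dlk1, Rtl1 and Dio3 are expressed instead. Rian is a host of small nucleolar RNAs and Mirg of microRNAs. Dlk1 encodes a membrane protein related to Notch ligands, Rtl1 a retrotransposon-derived protein needed in the placenta, and Dio3 the deiodinase that inactivates thyroid hormone. The cluster is known for variable silencing of Meg3 in cultured pluripotent stem cells.

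In the table (mm9, chromosome 12) Dlk1 lies at 110691033 to 110701546, Meg3 at 110779206 to 110809939, Rtl1 at 110828379 to 110833613 on the minus strand, Rian at 110842155 to 110899921, Mirg at 110973191 to 110987667 and Dio3 at 111517440 to 111519307. The interval spans 828 kb and holds 9 entries of the table. The 3 entries that are not members, 6430411K18Rik, 3110009F21Rik and Dio3os, had mean levels of 0.183, 0 and 0.0582 FPKM, a read level scaled to transcript length and library size. The 2 promoter windows below, from 250 bases before to 50 bases after the RefSeq start in build GRCm38.p6, are shown for the maternal RNA and the paternal gene with the highest levels.
Meg3 (chr12:109540746-109541045, plus strand): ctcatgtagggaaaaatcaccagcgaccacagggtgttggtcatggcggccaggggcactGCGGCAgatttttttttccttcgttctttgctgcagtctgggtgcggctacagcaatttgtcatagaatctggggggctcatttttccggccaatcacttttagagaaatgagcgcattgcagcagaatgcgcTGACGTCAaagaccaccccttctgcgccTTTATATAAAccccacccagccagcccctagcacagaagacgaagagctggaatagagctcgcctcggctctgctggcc
Dio3 (chr12:110278980-110279279, plus strand): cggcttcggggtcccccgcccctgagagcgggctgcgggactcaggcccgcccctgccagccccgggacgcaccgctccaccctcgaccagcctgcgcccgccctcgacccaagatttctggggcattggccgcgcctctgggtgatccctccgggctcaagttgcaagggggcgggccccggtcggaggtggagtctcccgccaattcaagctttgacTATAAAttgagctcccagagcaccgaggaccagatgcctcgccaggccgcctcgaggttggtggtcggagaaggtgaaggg
Capitals mark matches, on either strand, of 3 motifs: the cyclic AMP response element TGACGTCA, the TATA box letters TATAAA and TGCCGC, the letters bound by the imprint protector ZFP57 when methylated. The Meg3 window held TGACGTCA 57 bases before the start, TATAAA letters on both strands that overlap each other, 25 and 29 bases before it, and TGCCGC on the minus strand 190 bases before it. Of 32851 RefSeq windows of 300 bases, 1.79% held TGACGTCA, 13.6% TATAAA and 11.6% TGCCGC. The Dio3 window held TATAAA 31 bases before the start and neither of the other motifs. It had 25 CpG dinucleotides, against 13 in the Meg3 window and a median of 7 over all windows. The windows of Rian, Mirg and Dlk1 and a further Meg3 window held none of the motifs, and a match is a description of letters, not of a bound site.

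The RefSeq table lists 58 microRNA hairpins between Dlk1 and Dio3 in GRCm38.p6, of which 54 are on the plus strand, the strand of Meg3, Rian and Mirg. Mirg spans 10 of the plus-strand hairpins, Rian 3 and Meg3 1, while 13 lie between Meg3 and Rian and 27 between Rian and Mirg. Mature arms of both Mir1906-1 and Mir770 are listed within Meg3, so these hairpin counts leave out some loci with listed arms. These mRNA libraries do not measure mature microRNAs, so the sequences below show only what the maternally expressed strand encodes, with the seed (bases 2 to 8) in capitals.
mmu-miR-370-3p (within Rian): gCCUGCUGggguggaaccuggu
mmu-miR-453 (within Mirg): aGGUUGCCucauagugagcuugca
mmu-miR-496a-5p (within Mirg): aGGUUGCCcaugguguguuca
mmu-miR-410-3p (within Mirg): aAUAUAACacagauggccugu
mmu-miR-127-3p (between Meg3 and Rian): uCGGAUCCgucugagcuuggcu
mmu-miR-136-5p (between Meg3 and Rian): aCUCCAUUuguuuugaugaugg
The 114 mature arms listed had 104 distinct seeds. The seed of mmu-miR-453 is shared with mmu-miR-496a-5p, both from Mirg. mmu-miR-127-3p and mmu-miR-136-5p come from hairpins known to lie antisense to the coding sequence of Rtl1.

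Allele-assigned reads, those that cover a strain variant, summed to between 7301034 and 8008500 a library. The Smchd1 labels were checked first. Smchd1 had 6.68 FPKM in MD1/MD1 XistdeltaA/+ against 27.0 in +/+ XistdeltaA/+, and 5.98 in MD1/MD1 Xist1lox/+ against 20.9 in +/+ Xist1lox/+. Xist had 38.3 FPKM in MD1/MD1 XistdeltaA/+ against 12.1 in +/+ XistdeltaA/+, and 28.9 in MD1/MD1 Xist1lox/+ against 10.5 in +/+ Xist1lox/+. As markers of the labelled cell type, 12 primed epiblast genes, among them Pou5f1 and Sox2, were present at 1 FPKM or more in every library, and together they summed to between 1684 and 2238 FPKM. Single markers did not move alike. Sox2 had 92.8 FPKM in MD1/MD1 XistdeltaA/+ and 30.5 in +/+ XistdeltaA/+, and 65.9 in MD1/MD1 Xist1lox/+ and 91.4 in +/+ Xist1lox/+. Nanog had 56.1 FPKM in MD1/MD1 XistdeltaA/+ against 87.1 in +/+ XistdeltaA/+, and Otx2 44.4 against 80.9.

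The first question was whether the chromosome 12 region carried distinguishable parental alleles in each library. It did in all 4. Over 42 control genes within 5 Mb of the cluster, each with at least 20 allele-assigned reads per library, the median paternal share was 49.9% in MD1/MD1 XistdeltaA/+ and 49.0% in +/+ XistdeltaA/+. It was 47.6% in MD1/MD1 Xist1lox/+ and 49.9% in +/+ Xist1lox/+. The medians upstream of Dlk1 lay between 48.9% and 52.0% in the 4 libraries, and those downstream of Dio3 between 46.5% and 49.1%. Among the 5 nearest control genes on each side, Wars, a tryptophan tRNA ligase upstream, was at 52.3% to 54.6%, and Ppp2r5c and Dync1h1 downstream were at 47.3% to 53.2% and 46.5% to 48.9%. Evl, Yy1, Slc25a29 and Hsp90aa1 ranged from 41.2% to 68.3%. Zfp839 was at 29.6% to 39.4% on 54 to 193 reads, Mok at 46.4% to 64% and Slc25a47 at 31.8% to 55.2% on at most 41 reads. The lowest control gene in every library was Tnfaip2, a gene known to be induced in myeloid and endothelial cells, at 6.22% in MD1/MD1 XistdeltaA/+ and 14.9% in +/+ XistdeltaA/+, and at 4.74% in MD1/MD1 Xist1lox/+ and 20.3% in +/+ Xist1lox/+.

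**Figure D1:**
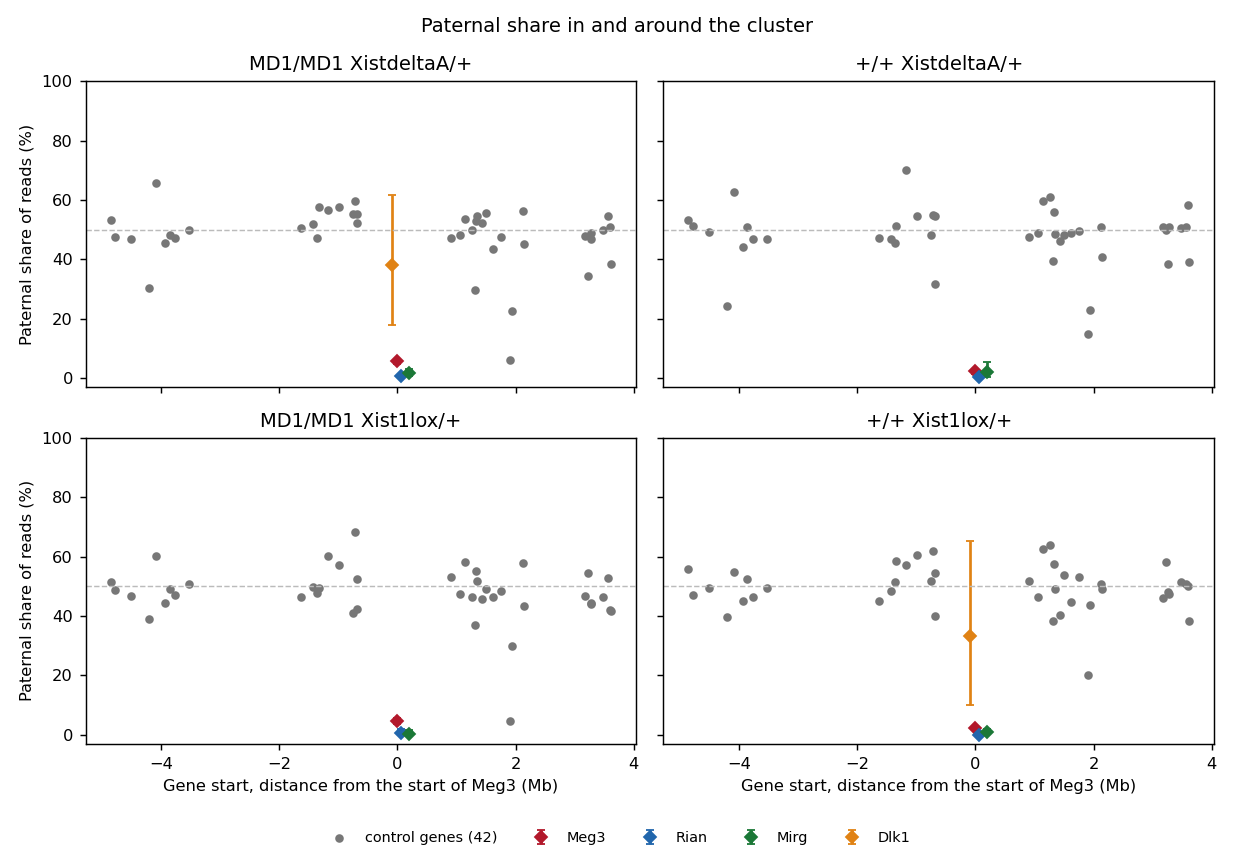
Paternal share of allele-assigned reads (%) against the distance of each gene's start from that of Meg3 (Mb), 1 panel per library. Grey points are the 42 control genes, with medians from 47.6% to 49.9%, and diamonds are cluster genes with exact 95% intervals. Meg3, Rian and Mirg lie under 6% in all 4 panels, and Dlk1 is drawn in the 2 libraries where a share is listed.

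Against this background Meg3, Rian and Mirg were read almost wholly from the maternal allele in all 4 libraries. Meg3, the long noncoding RNA next to the control region, had 179 paternal of 3116 reads in MD1/MD1 XistdeltaA/+, a share of 5.74% (exact Clopper-Pearson 95% interval 4.95 to 6.62). In +/+ XistdeltaA/+ it had 34 of 1441 reads, or 2.36% (1.64 to 3.28). In MD1/MD1 Xist1lox/+ it had 89 of 1877 reads, or 4.74% (3.82 to 5.80), against 68 of 2708, or 2.51% (1.96 to 3.17), in +/+ Xist1lox/+. Both MD1/MD1 libraries thus lay above both +/+ libraries, and the MD1/MD1 intervals did not overlap the +/+ ones. Intervals cover counting error only, not the spread between libraries. Since reads copied in PCR are not independent molecules, the intervals may be too narrow even for counting error.

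The difference in the Meg3 share was 3.39 points in the XistdeltaA/+ pair (adjusted p = 6.19e-07, two-sided Fisher's exact test, Benjamini-Hochberg over 10173 genes). In the Xist1lox/+ pair it was 2.23 points (Fisher's exact test, adjusted p = 0.000209 over 10270 genes). These tests compare libraries, not conditions, and they have no replicate check. By the same test the share differed for 37.2% of all genes in the XistdeltaA/+ pair and for 36.7% in the Xist1lox/+ pair. It was higher in MD1/MD1 for 17.3% and 20.7% of genes in these pairs, and for 7.84% of 9923 genes in both. A restriction chosen after the data had been seen kept the 5342 genes whose flanking genes had a median paternal share of at least 40% in all 4 libraries. Of these, 17 genes, or 0.318%, had a higher share in MD1/MD1 in both pairs, and Meg3 was among them. In each pair alone 4.02% and 3.89% of these genes did so. Among the 17 genes Meg3 had the lowest shares and, in both pairs, the smallest difference in points. Fisher's exact test can call a smaller difference at such low shares than where both alleles are read alike. The 0.318% is therefore not a like-for-like rate for Meg3. The pooled share of the 42 control genes was 48.2% in MD1/MD1 XistdeltaA/+ and 49.4% in +/+ XistdeltaA/+, and 48.9% in MD1/MD1 Xist1lox/+ and 49.4% in +/+ Xist1lox/+. Their medians, given above, were higher in MD1/MD1 in the XistdeltaA/+ pair and lower in the Xist1lox/+ pair.

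Rian and Mirg, further along the same strand, did not pass the test. Rian, the host of small nucleolar RNAs, had 6 paternal of 817 reads in MD1/MD1 XistdeltaA/+, a share of 0.734% (0.270 to 1.59), against 1 of 284, or 0.352% (0.00891 to 1.95), in +/+ XistdeltaA/+. It had 2 of 385 reads, or 0.519% (0.0630 to 1.86), in MD1/MD1 Xist1lox/+, against 0 of 435, or 0% (0 to 0.844), in +/+ Xist1lox/+. A count of 0 there allows up to 0.690% by the floor of 3 reads. All 4 intervals overlapped, and the adjusted p values of Fisher's exact test were 0.840 and 0.414.

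Mirg, the microRNA host, had 10 paternal of 589 reads in MD1/MD1 XistdeltaA/+, or 1.70% (0.817 to 3.10), and 4 of 186, or 2.15% (0.589 to 5.41), in +/+ XistdeltaA/+. It had 2 of 408, or 0.490% (0.0594 to 1.76), in MD1/MD1 Xist1lox/+ and 6 of 700, or 0.857% (0.315 to 1.86), in +/+ Xist1lox/+. The Mirg share was the lower one in MD1/MD1 in both pairs, with differences of -0.45 and -0.37 points and adjusted p values of 0.892 and 0.910 by Fisher's exact test. These tests do not show that the shares were alike, since a library held only 186 to 817 reads of either RNA.

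**Figure D2:**
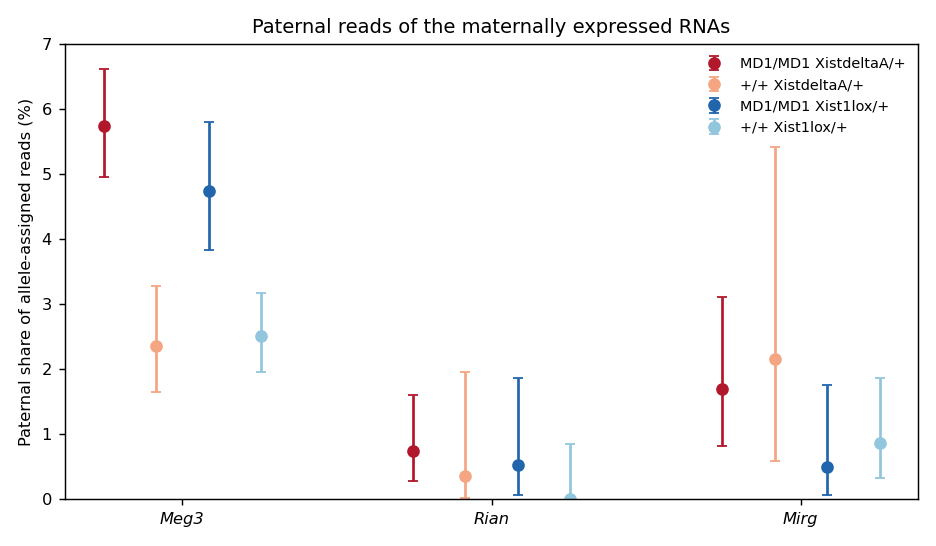
Paternal share of allele-assigned reads (%) of Meg3, Rian and Mirg, 1 point per library with its exact 95% interval. For Meg3 the MD1/MD1 libraries sit at 5.74% and 4.74%, above 2.36% and 2.51% in +/+, while the intervals of Rian and Mirg overlap.

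The Meg3 shares can be set beside those of regions that appeared to carry a single strain. Genes whose flanking genes had a median paternal share under 5% gave a pooled paternal share of 1.05% in MD1/MD1 XistdeltaA/+ and 0.622% in +/+ XistdeltaA/+. The value was 1.72% in MD1/MD1 Xist1lox/+ and 0.438% in +/+ Xist1lox/+. Of the 353, 391, 419 and 567 such genes with at least 1000 reads in these libraries, in that order, 9, 4, 10 and 8 had a share as high as that of Meg3. Other genes known for maternal expression, where their flanks carried both alleles, lay on both sides of these values. Grb10 was at 0.400% to 1.27% on 3848 to 5005 reads, H19 at 0% to 0.0763% on 750 to 3774 reads and Cdkn1c at 0% on 115 to 266 reads. Phlda2 was at 3.52% on 199 reads in +/+ XistdeltaA/+, within the range of Meg3, but at 0.310% to 0.431% on 232 to 323 reads elsewhere. Asb4 was at 0% to 4.35% on 22 to 23 reads. Igf2r was at 17.3% or more in 2 libraries, Blcap at 27.4% to 38.4%, Phactr2 at 36.3% to 44.2% and Gnas, a locus with transcripts of either parent, at 54.6% to 63.4%. These values were not tested against Meg3.

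Multiplied by the level, the shares split Meg3 into a paternal and a maternal part. The paternal part was 4.42 FPKM in MD1/MD1 XistdeltaA/+ against 1.02 in +/+ XistdeltaA/+, and 2.90 in MD1/MD1 Xist1lox/+ against 2.07 in +/+ Xist1lox/+. The maternal part was 72.6 FPKM in MD1/MD1 XistdeltaA/+ against 42.0 in +/+ XistdeltaA/+, and 58.3 in MD1/MD1 Xist1lox/+ against 80.2 in +/+ Xist1lox/+. The paternal part was thus the higher one in MD1/MD1 in both pairs, while the maternal part went opposite ways.

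The paternally expressed genes had few allele-assigned reads. Dlk1 had 8 paternal of 21 reads in MD1/MD1 XistdeltaA/+, a share of 38.1% (18.1 to 61.6), and 4 of 12 reads in +/+ Xist1lox/+, a share of 33.3% (9.92 to 65.1). In +/+ XistdeltaA/+ and MD1/MD1 Xist1lox/+ it had 4 and 8 reads and no listed share. Other genes known for paternal expression ranged widely where their flanks carried both alleles. Nnat was at 100% on 421 to 715 reads and Peg10 at 97.0% to 99.2% on 233 to 1200 reads, above both Dlk1 intervals. Also above both were Sgce at 88.0% to 99.7%, Zrsr1 at 93.5% to 99.1% and Plagl1 at 70.3% to 99.5%. The same held for Mest at 99.3% and 100% in 2 libraries and Peg3 at 99.6% in 1 library. Igf2 was at 50.3% to 86.0%, Peg13 at 57.8% to 100%, Inpp5f at 62.6% to 75.9% and Ndn at 41.5% and 64.7% in 2 libraries, so each of these reached into a Dlk1 interval. Reads of both alleles were thus present for Dlk1, a gene known for paternal expression. Dio3 had 4 to 8 reads and Rtl1 had none in any library, so neither has a listed share.

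The next comparison was of the total level of each gene. Meg3 and Rian were abundant and Mirg was lower in all 4 libraries. Meg3 had 77.0 FPKM in MD1/MD1 XistdeltaA/+ and 43.0 in +/+ XistdeltaA/+, and 61.2 in MD1/MD1 Xist1lox/+ and 82.3 in +/+ Xist1lox/+. Rian had 73.6 FPKM in MD1/MD1 XistdeltaA/+ and 35.3 in +/+ XistdeltaA/+, and 56.3 in MD1/MD1 Xist1lox/+ and 75.6 in +/+ Xist1lox/+. Mirg had 17.7 FPKM in MD1/MD1 XistdeltaA/+ and 5.52 in +/+ XistdeltaA/+, and 13.0 in MD1/MD1 Xist1lox/+ and 19.9 in +/+ Xist1lox/+. In FPKM all 3 RNAs had the same order of libraries: +/+ Xist1lox/+ was the highest, then MD1/MD1 XistdeltaA/+, MD1/MD1 Xist1lox/+ and +/+ XistdeltaA/+. Allele-assigned reads scaled to the library total kept this order for Mirg. For Meg3 and Rian they put MD1/MD1 XistdeltaA/+ above +/+ Xist1lox/+, from 3116 against 2708 reads and 817 against 435 reads before scaling. Without replicates it cannot be told which neighbours in these orders differ beyond the spread between libraries. In such bulk samples fewer cells with an RNA and less RNA per cell cannot be told apart.

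**Figure D3:**
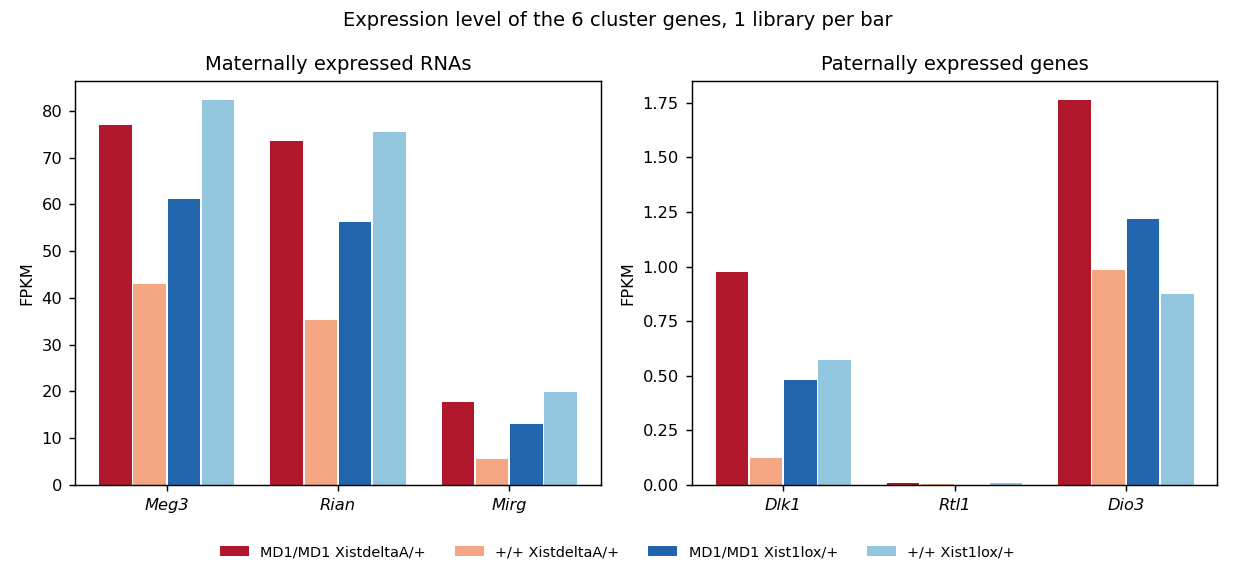
Expression level (FPKM) of the 6 cluster genes, with 1 bar for each library and separate scales for the maternal RNAs on the left and the paternal genes on the right. Meg3, Rian and Mirg are lowest in +/+ XistdeltaA/+, at 43.0, 35.3 and 5.52 FPKM, and Rtl1 is near 0 throughout.

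The 3 maternal RNAs were higher in MD1/MD1 in the XistdeltaA/+ pair and lower in the Xist1lox/+ pair. The FPKM ratio of MD1/MD1 to +/+ was 1.79 for Meg3, 2.09 for Rian and 3.21 for Mirg in the XistdeltaA/+ pair. In the Xist1lox/+ pair it was 0.744, 0.745 and 0.654. On the log2(FPKM + 1) scale, which understates changes of low genes, Rian and Mirg passed a size of 2-fold in the XistdeltaA/+ pair, where 3.91% of 11471 genes with a mean of at least 1 FPKM did so in that direction and 1.82% in the lower one. None of the 3 passed 2-fold in the Xist1lox/+ pair, where 0.445% of genes did so in the higher direction and 0.375% in the lower one. A log2 ratio above 0 in the XistdeltaA/+ pair and under 0 in the Xist1lox/+ pair, of any size, was seen for 21.4% of genes. Allele-assigned reads scaled to the library total gave the same directions, and Meg3 then passed 2-fold, with ratios of 2.11, 2.81 and 3.09 in the XistdeltaA/+ pair and 0.743, 0.948 and 0.624 in the Xist1lox/+ pair.

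With both pairs in 1 model, limma with Smchd1 genotype and Xist mutation as terms called 4 of 11471 genes for Smchd1 genotype at an adjusted p under 0.05, or 0.0349%, and no cluster gene was among them. Smchd1 itself, with a log2 difference of -1.76, was not called either (adjusted p = 0.173 from limma), so the absence of a call says little about a gene in this design. The log2 difference was 0.20 ± 0.31 for Meg3, 0.31 ± 0.35 for Rian and 0.47 ± 0.49 for Mirg (SE, 2 libraries against 2), with adjusted p values from limma of at least 0.937. Without the +/+ XistdeltaA/+ library, with Smchd1 genotype as the only term, the differences turned to -0.26, -0.23 and -0.37.

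Set by Xist mutation, Xist1lox/+ over XistdeltaA/+, the same values gave opposite directions in the 2 Smchd1 genotypes. In MD1/MD1 the FPKM ratios of Meg3, Rian and Mirg were 0.795, 0.766 and 0.733, and in +/+ they were 1.91, 2.14 and 3.60. limma called 0% of genes for Xist mutation, with 368 genes at an unadjusted p under 0.05 and 0 genes called by edgeR's quasi-likelihood test on allele-assigned reads. The log2 differences were 0.30 ± 0.31, 0.35 ± 0.35 and 0.63 ± 0.49 (SE), with adjusted p values from limma of 0.932, 0.932 and 0.927.

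The proportion between the 3 RNAs was compared as ratios of FPKM, a measure per length. Rian stood at 0.956 times Meg3 in MD1/MD1 XistdeltaA/+ and 0.819 times in +/+ XistdeltaA/+, and at 0.920 times in MD1/MD1 Xist1lox/+ and 0.918 times in +/+ Xist1lox/+. Mirg stood at 0.230 times Meg3 in MD1/MD1 XistdeltaA/+ and 0.128 times in +/+ XistdeltaA/+, and at 0.212 times in MD1/MD1 Xist1lox/+ and 0.241 times in +/+ Xist1lox/+. In +/+ XistdeltaA/+, the library with the lowest levels, Mirg was thus lower relative to Meg3 than in the other 3. Ratios of allele-assigned reads kept this for Mirg, at 0.129 there against 0.189 to 0.258. By these reads Rian stood at 0.262, 0.197, 0.205 and 0.161 times Meg3 in the order of libraries above, and so was lowest in +/+ Xist1lox/+. Together the 3 RNAs summed to 168 FPKM in MD1/MD1 XistdeltaA/+ against 83.8 in +/+ XistdeltaA/+, and to 131 in MD1/MD1 Xist1lox/+ against 178 in +/+ Xist1lox/+.

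The paternal genes were near the lower limit of the data. Dio3, the thyroid hormone deiodinase, had 1.76 FPKM in MD1/MD1 XistdeltaA/+ and 0.984 in +/+ XistdeltaA/+, and 1.22 in MD1/MD1 Xist1lox/+ and 0.874 in +/+ Xist1lox/+. It was higher in MD1/MD1 in both pairs, by log2 ratios of 0.48 and 0.24, and the model's difference was 0.36 ± 0.27 (SE, adjusted p = 0.937 from limma). Allele-assigned reads scaled to the library total turned the direction in the XistdeltaA/+ pair, with a ratio of 0.489 on 4 reads in MD1/MD1 against 8 in +/+, and gave 1.34 in the Xist1lox/+ pair. Dlk1, the Notch ligand relative, had 0.973 FPKM in MD1/MD1 XistdeltaA/+ and 0.122 in +/+ XistdeltaA/+, and 0.479 in MD1/MD1 Xist1lox/+ and 0.573 in +/+ Xist1lox/+. Its mean of 0.537 FPKM lies under the filter, so it was not tested. Rtl1, which faces the maternal RNAs on the opposite strand, stayed at or under 0.00981 FPKM in every library, and with no allele-assigned read it was not detectable at this depth.

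Likeness to Meg3 was measured as the Euclidean distance between levels on the log2(FPKM + 1) scale, centred on each gene's mean over the 4 libraries. The 5 nearest of 11470 genes were Pea15a, Psmb10, Dlgap3, Plekho1 and Tagln, at distances of 0.105 to 0.127. Pea15a had 62.4 FPKM in MD1/MD1 XistdeltaA/+ and 36.5 in +/+ XistdeltaA/+, and 54.5 in MD1/MD1 Xist1lox/+ and 67.4 in +/+ Xist1lox/+. Tagln, which encodes the actin-binding protein transgelin, had 172, 87.2, 138 and 175 FPKM in the same order of libraries. None of the 5 lies on chromosome 12. Rian was the gene ranked 19 (distance 0.161), Mirg ranked 2369 (0.604) and Dio3 ranked 4316 (0.726). With 4 libraries many unrelated genes share an order, so this ranking is a description.

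**Figure D4:**
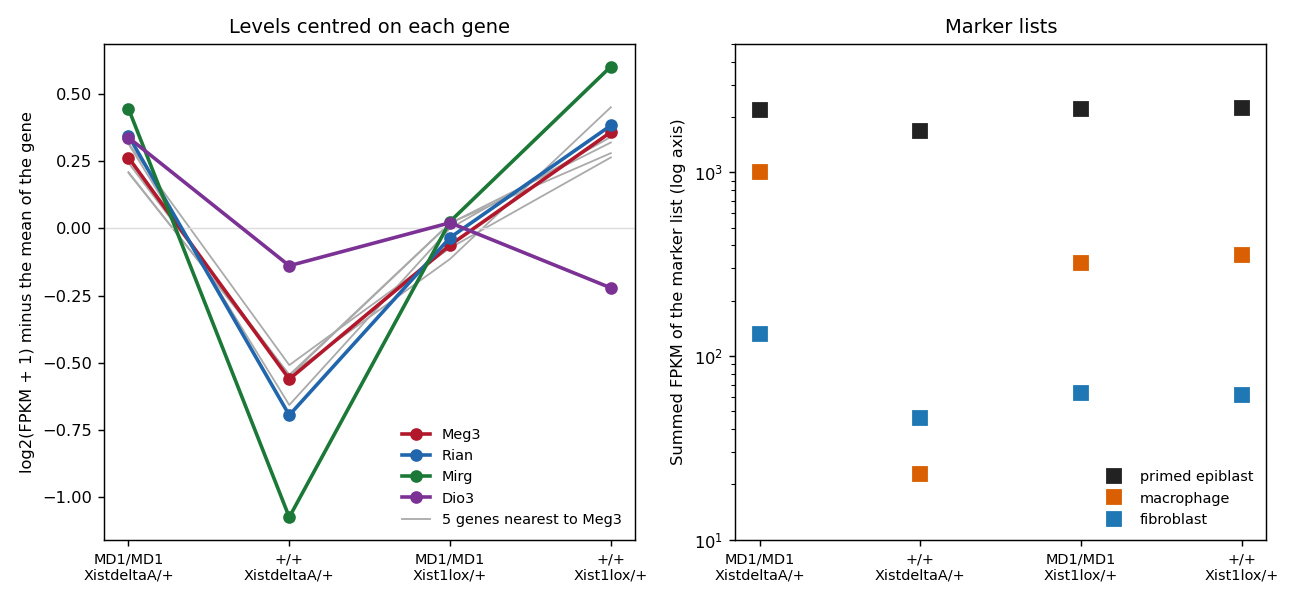
Left, log2(FPKM + 1) of Meg3, Rian, Mirg and Dio3 in the 4 libraries after subtraction of each gene's mean, with the 5 genes nearest to Meg3 in grey. Right, summed FPKM of 3 marker lists on a log axis. Meg3, Rian and Mirg are lowest in +/+ XistdeltaA/+, the library where the 11 macrophage markers sum to 22.7 FPKM.

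Markers of other cell types moved with part of this pattern. The 11 macrophage markers in the table summed to 1006 FPKM in MD1/MD1 XistdeltaA/+ and 22.7 in +/+ XistdeltaA/+, and to 323 in MD1/MD1 Xist1lox/+ and 357 in +/+ Xist1lox/+. In +/+ XistdeltaA/+, 10 of the 11 were under 1 FPKM, and C1qa, C1qb, Tyrobp and Emr1 were listed at 0. The 12 fibroblast markers, such as Col1a1 and Lum, summed to 132 FPKM in MD1/MD1 XistdeltaA/+ and 45.9 in +/+ XistdeltaA/+, and to 62.8 in MD1/MD1 Xist1lox/+ and 61.7 in +/+ Xist1lox/+, and none was at 0. In the XistdeltaA/+ pair 9 of 10 macrophage, 7 of 11 fibroblast and 2 of 12 primed epiblast markers tested were past 2-fold higher in MD1/MD1, against 3.91% of all genes. For the Xist1lox/+ pair this was 0 of each list, against 0.445% of all genes. The 9 mesendoderm markers summed to between 5.87 and 7.61 FPKM. By FPKM Meg3, Rian and Mirg were highest in +/+ Xist1lox/+, where the macrophage and fibroblast sums were lower than in MD1/MD1 XistdeltaA/+. By allele-assigned reads scaled to the library total, Meg3 and Rian were highest in MD1/MD1 XistdeltaA/+ itself, and Mirg in +/+ Xist1lox/+.

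Allele shares of the marker lists were compared in the same way. Fibroblast markers with at least 20 reads in regions that carried both alleles had a pooled paternal share of 12.2% in MD1/MD1 XistdeltaA/+ (8 genes) and 28.2% in +/+ XistdeltaA/+ (9 genes). The share was 17.6% in MD1/MD1 Xist1lox/+ (9 genes) and 27.4% in +/+ Xist1lox/+ (7 genes). Macrophage markers gave 1.39% in MD1/MD1 XistdeltaA/+ (6 genes) and 61.0% in +/+ XistdeltaA/+, where Cd68 alone had enough reads, and 1.96% in MD1/MD1 Xist1lox/+ (6 genes) and 13.2% in +/+ Xist1lox/+ (5 genes). These macrophage shares rest on 13905, 341, 5830 and 1107 reads in that order. For both lists the genes pooled were not the same in all libraries, so the pooled shares are not a like-for-like comparison of genotypes. Single macrophage markers ranged from 0.0265% to 41.7% in MD1/MD1 XistdeltaA/+. They ranged from 0% to 30.9% in MD1/MD1 Xist1lox/+ and from 0% to 35.8% in +/+ Xist1lox/+. Primed epiblast markers gave pooled shares of 49.5% to 51.5% in the 4 libraries. The part of other cells in the levels and shares of Meg3, Rian, Mirg and Dlk1 was not tested.

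Genes tied to the functions of the cluster were described from lists, and none of their genes passed limma for Smchd1 genotype, which did not call Smchd1 itself. Of 15 genes that maintain or read imprints, 12 had a mean of at least 1 FPKM and 0 were 2-fold changed in both pairs, where 0.131% of all genes were higher and 0.113% lower. Their median log2 ratios were -0.044 and 0.10 in the XistdeltaA/+ and Xist1lox/+ pairs, against -0.048 and 0.0040 over all genes tested. Among the highest, Trim28, the corepressor recruited by ZFP57, had log2 ratios of 0.13 and -0.014, and the maintenance factor Uhrf1 0.15 and 0.10. The Polycomb methyltransferase Ezh2 had log2 ratios of 0.050 and 0.22. The de novo DNA methyltransferase Dnmt3b was the 1 member past 2-fold in a pair, at 320 FPKM in MD1/MD1 XistdeltaA/+ against 144 in +/+ XistdeltaA/+, and at 268 in MD1/MD1 Xist1lox/+ against 242 in +/+ Xist1lox/+.

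Over all genes tested, 3.91% were past 2-fold higher in MD1/MD1 and 1.82% lower in the XistdeltaA/+ pair. These shares were 0.445% and 0.375% in the Xist1lox/+ pair. Of 20 Notch pathway genes, 15 were tested and 0 passed 2-fold in either pair, with medians of -0.20 and 0.042. The Notch target Hes1 had log2 ratios of -0.65 and 0.12, the receptor Notch3 0.52 and 0.72, the glycosyltransferase Lfng -0.44 and -0.41 and the target Hey1 -0.23 and -0.078. Of 9 thyroid hormone genes, 4 were tested and 0 passed 2-fold, with medians of -0.36 and 0.24. Among them were the receptor gene Thra, with log2 ratios of -0.64 and 0.49, the transporter Slc16a10, with 0.20 and -0.11, and the hormone-binding Crym, with -0.31 and 0.42. Of 12 Gag-derived genes in the table, relatives of Rtl1 by origin, 6 were tested, with medians of 0.55 and -0.037. Of these, Cxx1c was past 2-fold higher in the XistdeltaA/+ pair, at a log2 ratio of 1.68, and Arc in the Xist1lox/+ pair, at 3.50, while the imprinted Peg10 was past 2-fold lower in the Xist1lox/+ pair, at -1.53. Cxx1a and Cxx1b had log2 ratios of 0.45 and -0.49 and of 0.0022 and 0.24, and these X-linked genes are near-identical copies of Cxx1c, so their levels are uncertain. Of 11 other paternally expressed imprinted genes tested, Ndn was past 2-fold higher in both pairs, as were 0.131% of all genes. It was at 14.8 FPKM in MD1/MD1 XistdeltaA/+ against 2.77 in +/+ XistdeltaA/+, and at 13.9 in MD1/MD1 Xist1lox/+ against 5.43 in +/+ Xist1lox/+. The flanks of Ndn had a median paternal share of 49.2% in MD1/MD1 XistdeltaA/+ and 46.2% in MD1/MD1 Xist1lox/+, but 0% in both +/+ libraries. The strain of the paternal allele there thus went with Smchd1 genotype, and its part in the Ndn levels was not tested. Of 9 tested genes listed here as maternally expressed, 0 were past 2-fold in both pairs. H19, with log2 ratios of 1.56 and -0.42, Cdkn1c, with 0.82 and -0.97, and Mcts2, with 0.099 and -0.22, went opposite ways like Meg3, Rian and Mirg. Igf2r and Phlda2 were higher in MD1/MD1 in both pairs, and Grb10, Gnas, Blcap and Phactr2 were lower in both. The 9 genes include Mcts2, which is known for paternal expression and so does not belong in this list. It had 0 allele-assigned reads in every library, so its direction could not be checked here.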

How the data were processed

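The 4 EpiSC libraries hold mRNA prepared with strand kept, as the labels' protocols state. Build mm9, Cufflinks 2.2.1 and Cuffdiff appear in the submitters' processing notes, while the sources used here name no aligner, strain variants or annotation. The deposited values are counts of allele-assigned reads, the paternal fraction of those reads (listed from 10 reads up) and FPKM, whose scaling between libraries is not stated. The deposited fraction times the count was whole, within 1e-06, for 100% of 45860 values. Another 6 columns match no sample and were not used. End minus start equalled the RefSeq (GRCm38.p6) length for 44.5% of 21372 genes, and for 2.90% with 1 added, so starts were taken to count from 0 and are printed from 1.

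MD1/MD1 and +/+ libraries of equal Xist mutation were compared by Fisher's exact test on paternal and maternal reads (scipy 1.17.1) and by ratios of log2(FPKM + 1). A limma 3.58.1 model with trend had terms for Smchd1 genotype and for Xist mutation, which left 1 residual degree of freedom. Since the deposited counts cover only strain variants, edgeR 4.0.16 on them (filterByExpr, TMM) was an alternative. These tests were tried on simulated data. Filters were 20 reads for shares and a mean of 1 FPKM for levels. Begain and Wdr25, beside the cluster, were left out of the control genes. Named genes are the 6 members, Smchd1, Xist, the 5 nearest control genes a side, the other entries of the interval, the 5 genes nearest to Meg3 and, in each list, members past 2-fold the same way in both pairs or else the 4 highest by mean FPKM, of which 1 is not reported here. Any other named gene was chosen after its values were seen. Members and lists were chosen with earlier results of these data known.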

Additional observations from a re-analysis of the deposited data

Results flagged for a closer look

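The levels of Meg3, Rian and Mirg went opposite ways in the 2 Xist backgrounds, higher in MD1/MD1 with XistdeltaA/+ and lower in MD1/MD1 with Xist1lox/+. The log2 ratio of the XistdeltaA/+ pair exceeded that of the Xist1lox/+ pair by 1.25 for Meg3, 1.46 for Rian and 2.10 for Mirg. Each ratio rests on 1 library a side, and this difference was not tested.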

How the results depend on the processing

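Control genes within 2 or 10 Mb, with at least 10 or 50 reads, or pooled over reads kept the chromosome 12 region on the side of both alleles in all 4 libraries. Genes called for allele share numbered 3780 and 3767, and 1021 and 485 among regions with both alleles. Meg3, Rian and Mirg kept opposite directions in the pairs in all 9 combinations of 3 genes and 3 settings that change a ratio (the smaller pseudocount, allele-assigned reads and quantile normalization). Taken alone, the Xist1lox/+ pair turned their log2 differences to -0.42, -0.42 and -0.58, allele-assigned reads turned the log2 ratio of Dio3 in the XistdeltaA/+ pair to -0.43, and edgeR turned the difference of Rian for Xist mutation to -0.18. Leaving out each library in turn, chosen after seeing the data, left differences of -0.26 to 0.66 for Meg3, -0.23 to 0.85 for Rian and -0.37 to 1.31 for Mirg, and 9 to 24 genes called for Smchd1 genotype (14 without +/+ XistdeltaA/+ and 11 without MD1/MD1 Xist1lox/+), against 6 with all 4 libraries and the same single term and 4 in the model with both terms. The lone library left in a genotype is there assumed to vary like the others. Without a filter 0 genes were called by limma (567 at an unadjusted p under 0.05), and edgeR with its own filter called 5. Genes past 2-fold numbered 657 and 94 in the pairs and 28 in both. They numbered 1004, 193 and 50 with a pseudocount of 0.1, 1471, 386 and 80 with allele-assigned reads scaled to the library total, and 2124, 366 and 98 at 1.5-fold. No paired analysis was possible because each group has 1 library and the labels give no replicate numbers, and libraries are matched here only by Xist mutation, which is a term of the model.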
